A study of Mus musculus with 2 samples.

Results

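Chromatin accessibility at 40 genes of mitosis and the spindle was read from peak lists of 1 Brd9 knockout and 1 control ATAC-seq library of mouse fetal liver. The genes form a fixed list that was looked up by symbol in a RefSeq gene table, where all 40 were found among 21883 protein-coding genes. Peaks of both lists that shared at least 1 bp were merged into 29076 regions, and a region is called a gene-end region where it lies no more than 1 kb from a gene's start or end. The 40 genes had 43 of these. ATAC-seq cuts open DNA with a transposase, so the number of reads at a peak reflects how open the site was.

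The knockout library came from CD45.2(+) Vav1-iCre Brd9fl/fl cells and the control library from CD45.2(+) Brd9fl/fl cells, both of strain C57BL/6 at stage E14.5. In both, 150000 c-Kit-positive cells without lineage markers had been sorted, which selects immature blood cells. Regulatory DNA of Vav1 drives the Cre recombinase in blood cells, so floxed Brd9 is a target there, and both libraries carried the floxed alleles. BRD9 binds acetylated proteins and belongs to ncBAF, a variant of the SWI/SNF chromatin remodelling complexes. The sources used here do not say how many embryos each library pooled, and each genotype had 1 library, so no test between genotypes was possible. Each difference below is between 2 libraries.

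Dividing cells condense their chromosomes, attach them to spindle microtubules at the kinetochores, and separate them once a checkpoint is satisfied. Many of the genes for these steps are transcribed late in the cell cycle. Their promoters are known for the CHR (cell cycle genes homology region), an element bound by LIN54 of the DREAM and MuvB complexes, and for CCAAT boxes, bound by NF-Y. Fetal liver progenitors divide fast as a population. Fewer dividing cells and less open chromatin per cell cannot be told apart in such bulk libraries.

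The promoters carried those letters often. RefSeq promoter sequences (GRCm38.p6, 250 bases before to 50 after a start) were at hand for 33 of the 40 genes, and not for Aurkb, Incenp, Spc24, Smc4, Kif20a, Cdc25c and Tpx2. The CHR letters TTTGAA or TTTAAA, read on both strands, were found in 26 of the 33 promoters (78.8%), against 25.5% of 17491 coding-gene promoters and 18.2% of the 8434 with a gene-end region in both lists. The 26 include Kif2c, whose listed start lay outside its open region. The contrast was greatest close to the start. From 50 bases before to 50 after it, 69.7% of the member promoters held a CHR match, against 6.85% of all coding promoters. CCAAT or its complement was found in 24 promoters (72.7%), against 39.2% of all. Both letters together were found in 22 (66.7%), against 10.3%. An E2F site, spelled TTTGGCGC, TTTCCCGC, TTTGCCGC or TTTCGCGC, was found in 4 (12.1%), against 2.94%. The tandem CDE-CHR, spelled as GGCGG, any 4 bases and the CHR letters, was found at Cenpf and Ndc80 (6.06%), against 0.114%. The CHR letters are part of every CDE-CHR match. A match is a run of letters and not a measured binding site.

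Stretches of 6 of these promoters are shown because their regions are the ones whose reads differed between the libraries beyond counting error, or stood in 1 list. Each holds 110 bases before the listed start and 30 from it on, 5′ to 3′ on the strand of the gene, with coordinates in GRCm38.p6. Capitals mark CHR letters and CCAAT on either strand (ATTGG is CCAAT on the other strand). The matches are descriptions and were not tested against the reads.
Ccnb2 (chr9:70421525-70421664, minus strand): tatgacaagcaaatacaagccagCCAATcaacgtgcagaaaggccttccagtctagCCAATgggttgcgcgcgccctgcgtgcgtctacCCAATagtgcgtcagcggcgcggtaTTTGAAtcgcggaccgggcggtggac
Cdca8 (chr4:124936888-124937027, minus strand): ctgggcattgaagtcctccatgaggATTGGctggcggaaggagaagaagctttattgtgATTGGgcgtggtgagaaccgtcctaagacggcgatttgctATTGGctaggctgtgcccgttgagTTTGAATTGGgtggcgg
Cdc20 (chr4:118437314-118437453, minus strand): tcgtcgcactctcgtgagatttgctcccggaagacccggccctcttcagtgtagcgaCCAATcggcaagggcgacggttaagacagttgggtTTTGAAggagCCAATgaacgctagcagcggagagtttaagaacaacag
Cdc25b (chr2:131186838-131186977, plus strand): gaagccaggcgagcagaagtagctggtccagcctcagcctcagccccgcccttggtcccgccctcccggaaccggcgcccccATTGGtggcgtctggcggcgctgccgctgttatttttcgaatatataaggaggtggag
Ndc80 (chr17:71526828-71526967, minus strand): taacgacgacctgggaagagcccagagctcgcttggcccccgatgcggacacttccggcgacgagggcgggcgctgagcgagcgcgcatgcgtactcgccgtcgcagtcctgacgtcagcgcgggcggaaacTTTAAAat
Kif23 (chr9:61946770-61946909, minus strand): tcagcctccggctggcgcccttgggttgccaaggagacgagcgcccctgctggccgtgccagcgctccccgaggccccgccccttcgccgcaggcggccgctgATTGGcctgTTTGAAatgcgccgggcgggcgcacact

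In these stretches Ccnb2 has 3 CCAAT boxes and Cdc20 has 2, each with a CHR near the start. Cdca8 has a CHR that overlaps the last of its 4 boxes, and Kif23 has 1 of each. Cdc25b has a single box and no CHR letters, and Ndc80 has a CHR after the listed start and no box. With positions counted from 1 at the first base of the transcript, the CHR matches start at 5 in Ccnb2, 14 in Cdca8, 3 in Kif23 and 23 in Ndc80, and at -18 in Cdc20.

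**Figure D1:**
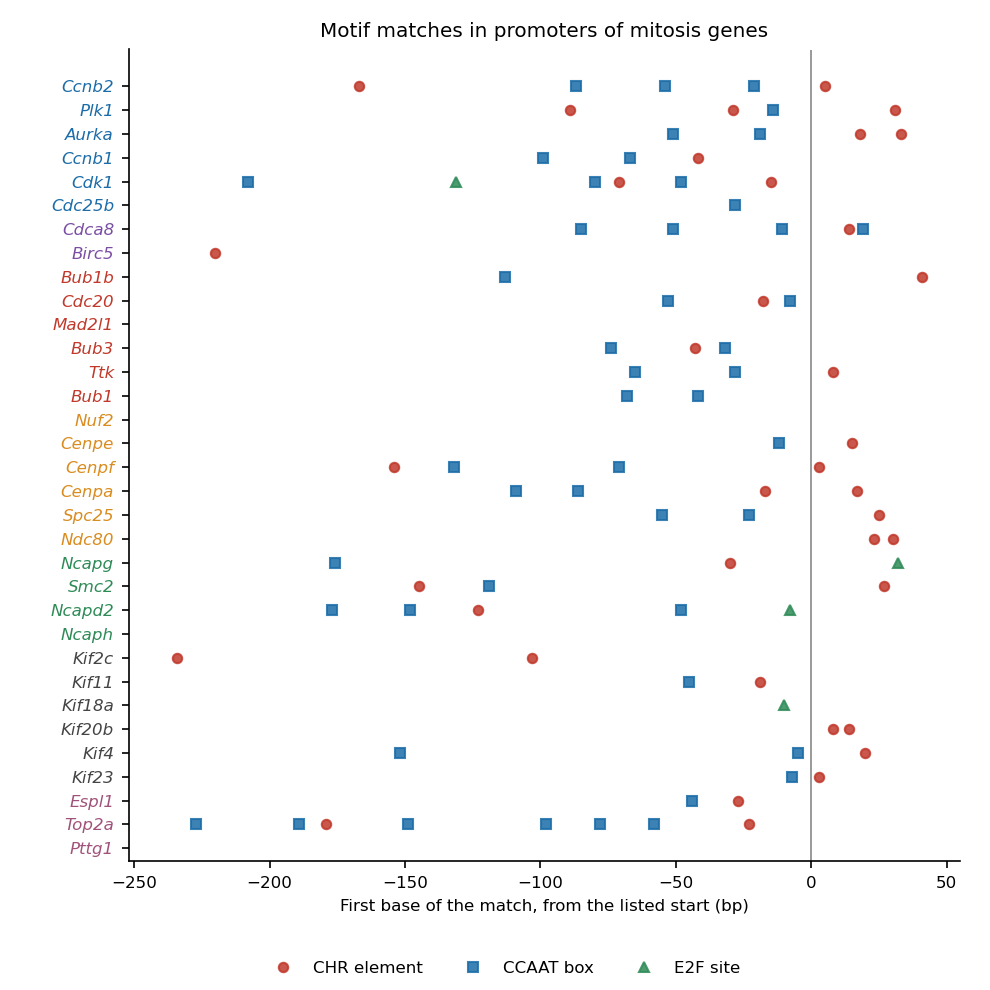
Positions of CHR, CCAAT and E2F letters in the 33 member promoters, as the distance in bp of the first base of each match from the listed start, with 1 row per gene. CHR matches gather within 50 bp of the start, where 69.7% of these promoters have one, and CCAAT boxes lie mostly before it.

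Nearly all the genes were open at an end in both libraries. A gene-end region stood in both lists for 38 of the 40 genes (95%), against 47.4% of all coding genes. No member was in the knockout list alone (1.79% of coding genes) or had separate regions of 1 list each (0.133%). Where a start was listed, it lay inside the region for 32 of 33 genes, and the summits of the 31 of these genes in both lists lay a median of 69 bp from it in the knockout and 60 bp in the control. Summit reads, the reads over the highest point of a peak, ran from 21 to 278 with a median of 89 in the knockout, and from 40 to 439 with a median of 137 in the control. By background reads the depth of the knockout library was 0.640 times the control's, so ratios of knockout over control reads were divided by that value. A scaled ratio of 1 means equal reads at equal depth.

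The scaled ratios of the 38 genes spread around 1, with more of them below than above it. Their median was -0.10 on the log2 scale (SD 0.29), 25 of them below 0 and 13 above, against a median of 0.01 (SD 0.36) over 10373 coding genes. Intervals are exact 95% intervals of the ratio and cover counting error, not variation between embryos. They lay below 1 at 4 members (10.5%; Ccnb2, Cdca8, Kif2c and Cdc20), where 7.6% of all coding genes had such an interval, and above 1 at 2 members (5.26%; Ndc80 and Kif23), where 9.32% had. Among the 7967 coding genes within the members' range of summed reads these shares were 8.87% below and 7.97% above 1. A ratio of 0.667 or less was found at 4 members (10.5%; background 4.59%) and one of 1.5 or more at 0 (background 4.95%), with shares of 4.39% and 2.59% in the same range of summed reads. The share at or under 0.667 was thus above the background and the share at or over 1.5 under it, each on a count of 4 or fewer genes that was not tested. Calculated from the deposited fold enrichment in place of summit reads, the median of the members was 0.021. Ratios of that fold were divided by 0.990, their median over the regions in both lists.

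**Figure D2:**
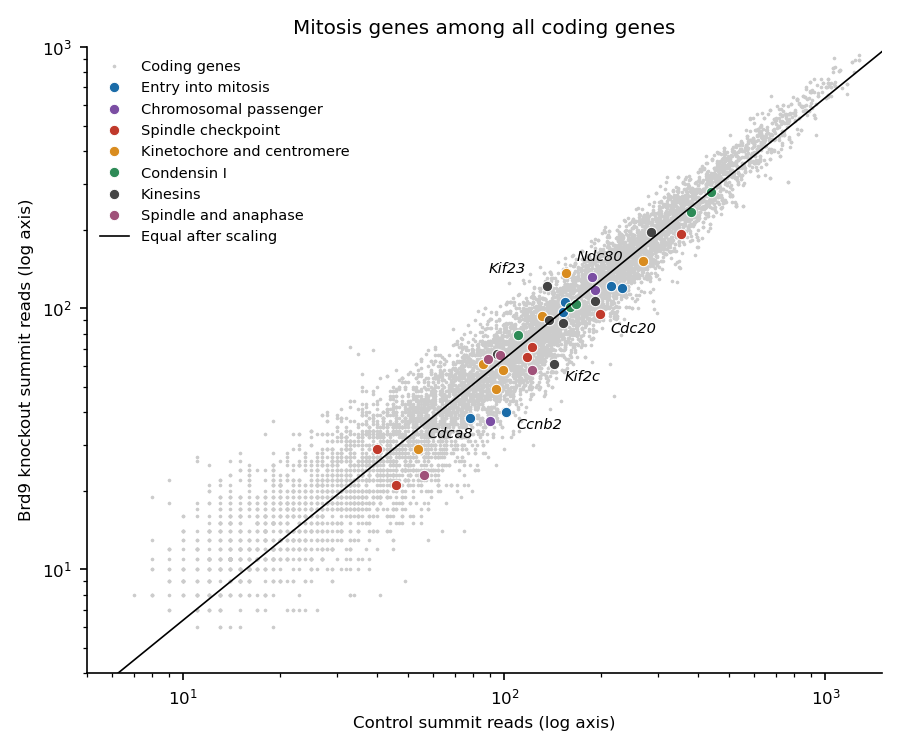
Summit reads of the knockout (vertical) and the control (horizontal) at the gene-end region of each coding gene in both lists, on log axes, with the members coloured by role. The line marks equal reads after scaling by 0.640, and the members lie within the cloud of the 10373 coding genes, with Ccnb2, Cdca8, Kif2c and Cdc20 below the line and Ndc80 and Kif23 above it.

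Genes for entry into mitosis had ratios below 1 apart from Cdk1. Their median was -0.24 over 6 genes, and the 7th, Cdc25b, had no knockout peak. Ccnb2 encodes cyclin B2, a partner of the mitotic kinase CDK1, and its region (chr9:70420980-70422126) had 40 summit reads in the knockout and 101 in the control. The scaled ratio of 0.618 (0.418 to 0.900) was the lowest of all members. Its peak was 729 bp wide in the knockout and 1146 bp in the control. At Ccnb1, for cyclin B1, the region at the start had 122 reads in the knockout and 215 in the control (0.886, 0.704 to 1.11), and one past the other end had 51 and 76 reads (1.05, 0.720 to 1.51). Both cyclin genes are known targets of the same late cell-cycle regulators, and the intervals of their ratios overlapped. Plk1, for the polo-like kinase of spindle assembly, had 38 knockout and 78 control reads (0.761, 0.502 to 1.14). Aurka, for the Aurora kinase of the spindle poles, had 120 and 232 (0.808, 0.643 to 1.01). Neither interval left out 1. Cdk1 itself was the highest of the group, with 106 reads in the knockout and 154 in the control (1.07, 0.831 to 1.39). Cdc25c, a phosphatase gene that activates CDK1, had 97 and 152 reads (0.997, 0.764 to 1.29).

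Cdc25b, which encodes the related phosphatase that triggers entry into mitosis, was the single member whose gene-end regions were all in the control list alone. (Plk1 also had one such region, of 8 control reads at its other end, which is shared with Ern2.) Its region (chr2:131186592-131187520) had no listed peak in the knockout and 58 summit reads in the control (44.0 to 75). At the depth of the knockout, 58 control reads correspond to 37.1 reads (28.2 to 48.0), while the weakest listed knockout peak had 6 reads. Of all coding genes, 3.42% were in the control list alone, with a median of 15 control reads, and 24 of those 748 had 58 or more. Among the 7823 coding genes with at least 58 control reads at their highest gene-end region, that region lacked a knockout peak at 27 (0.345%). Cdc25b was therefore one of few control regions of 58 or more reads without a knockout counterpart. Its reads were high for the control list alone, but under the control medians of genes in both lists (137 at the members, 120 at coding genes). The shortest listed peak was 376 bp in both lists, and a site can be open without passing the caller's threshold. A region 7056 bp from the gene was in both lists, with 63 knockout and 125 control reads (0.787, 0.572 to 1.07), and a region 5965 bp away, at an end of the centromere protein gene Cenpb, was again in the control list alone, with 28 reads.

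The chromosomal passenger complex joins the kinase AURKB to INCENP, survivin (BIRC5) and borealin (CDCA8) and corrects faulty attachments. Cdca8 (chr4:124936265-124937485) had 37 reads in the knockout and 90 in the control, a scaled ratio of 0.642 (0.426 to 0.951), and its region also lies at an end of the coding gene 9930104L06Rik. Incenp had 117 and 191 reads (0.957, 0.753 to 1.21). Birc5 had 132 and 188 (1.10, 0.871 to 1.38). Of these partner genes, Cdca8 alone had an interval that left out 1. Aurkb was the single member with no gene-end region in either list, as were 47.3% of coding genes. The nearest region lay 3724 bp from it among transfer RNA genes, with 327 knockout and 436 control reads.

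Spindle checkpoint genes, whose products hold the cell in metaphase until chromosomes are attached, had 5 ratios below 1 and 1 above it, with a median of -0.23. Cdc20, which encodes the activator of the anaphase-promoting complex that the checkpoint blocks, had 95 reads in the knockout and 199 in the control (chr4:118436679-118437891; 0.746, 0.578 to 0.957). Mad2l1, for the MAD2 protein that binds CDC20, had 193 and 355 reads (0.849, 0.709 to 1.01). Its interval reached just past 1. Bub1b, for the checkpoint protein BUBR1, had the lowest ratio of the group, from 21 knockout and 46 control reads (0.713, 0.404 to 1.22). Bub1, for a kinase that recruits the other checkpoint proteins, had the highest, from 29 and 40 (1.13, 0.677 to 1.87). At such counts a ratio is loosely fixed, and the intervals of both genes include 1. Bub3, whose product carries BUB1 and BUBR1 to kinetochores (65 and 118 reads; 0.860), and Ttk, the gene of the kinase MPS1 (71 and 122 reads; 0.909), lay between.

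Kinetochore and centromere genes had ratios on both sides of 1, 4 below and 3 above, with a median of -0.13. The NDC80 complex, which grips microtubules, has 4 subunits, all among the members. Ndc80 (chr17:71526384-71527384) had 136 reads in the knockout and 156 in the control, a ratio of 1.36 (1.07 to 1.72), and the region is shared with an end of Spdya, a cell-cycle regulator gene. Its partner gene Nuf2 had 49 and 94 reads (0.814, 0.564 to 1.16). Spc24 had 58 and 99 (0.915, 0.650 to 1.28), and Spc25 had 93 and 131 (1.11, 0.841 to 1.46). The subunit genes thus ranged from 0.814 to 1.36, and the intervals of Ndc80 and Nuf2 overlapped. Cenpa, for the histone H3 variant that marks centromeres, had 61 and 86 reads (1.11, 0.784 to 1.56). Cenpf had 151 and 271 (0.870, 0.708 to 1.07). Cenpe, a kinesin gene of the kinetochore, had 29 and 54 (0.839, 0.515 to 1.34).

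Condensin genes were the most even group. The complex compacts mitotic chromosomes, with SMC2 and SMC4 as its arms and NCAPD2, NCAPG and NCAPH as its further subunits. Their 5 ratios ran from 0.953 to 1.12, with an SD of 0.09 on the log2 scale, and the interval of each included 1. This SD was not compared with the spread that counting error alone gives. Ncapd2 had the most reads of all members, with 278 in the knockout and 439 in the control (0.989, 0.848 to 1.15). Its region is shared with the mitochondrial ribosomal protein gene Mrpl51, and the region at its other end with Gapdh (174 and 259 reads; 1.05, 0.861 to 1.28). Ncapg had the next most, 233 and 382 (0.953, 0.806 to 1.12). Ncaph stood highest, with 79 and 110 (1.12, 0.829 to 1.51). Smc2 had 101 and 160 reads and Smc4 had 104 and 167, for ratios of 0.986 and 0.973. The regions of Smc2 (Smc2os), Smc4 (Ift80), Ncapg (1600023N17Rik) and Ncaph (Gm35347) also lie at an end of another gene. Counting intervals at Ncapd2 leave room for a knockout level from 0.848 to 1.15 times that of the control.

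Kinesin genes, which encode microtubule motors, held members that lay apart in opposite directions. Kif2c encodes MCAK, which takes microtubules apart at the kinetochore. Its region (chr4:117181988-117182932) had 61 reads in the knockout and 143 in the control, a ratio of 0.666 (0.485 to 0.905). The start listed for Kif2c in the promoter table lay 3773 bp from the knockout summit and 3771 bp from the control summit, so its promoter is not shown above. Kif23 encodes MKLP1, a motor of the central spindle and of cytokinesis. Its region (chr9:61946197-61947189) had 122 reads in the knockout and 136 in the control, a ratio of 1.40 (1.09 to 1.80), the highest of all members. With gene ends at 2.5 kb a region at Rplp1, 2248 bp from Kif23, stood for the gene instead, with 136 knockout and 295 control reads (0.720, 0.583 to 0.885). The intervals of Kif2c and Kif23 did not overlap. The other 5 kinesin genes ran from 0.875 at Kif11, the motor that pushes spindle poles apart, to 1.10 at Kif4, a chromosome-arm motor gene on chromosome X. Kif11 had 107 and 191 reads, Kif18a 88 and 152, Kif20b 90 and 138, Kif20a 196 and 287, and Kif4 67 and 95. None of these 5 intervals left out 1, and the median of the 7 kinesin genes was 0.03.

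Of the remaining genes, Espl1, for separase, which cuts cohesin at anaphase, had 23 reads in the knockout and 56 in the control (0.641, 0.377 to 1.06). It passed the fold of 0.667, but its interval included 1. Tpx2, for the protein that activates AURKA on the spindle, had 58 and 122 (0.742, 0.533 to 1.02). Pttg1, for securin, the inhibitor of separase, was the highest with 64 and 89 (1.12, 0.801 to 1.57), and Top2a, for topoisomerase II alpha, had 66 and 97 (1.06, 0.765 to 1.47). The median of the 4 genes was -0.17.

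**Figure D3:**
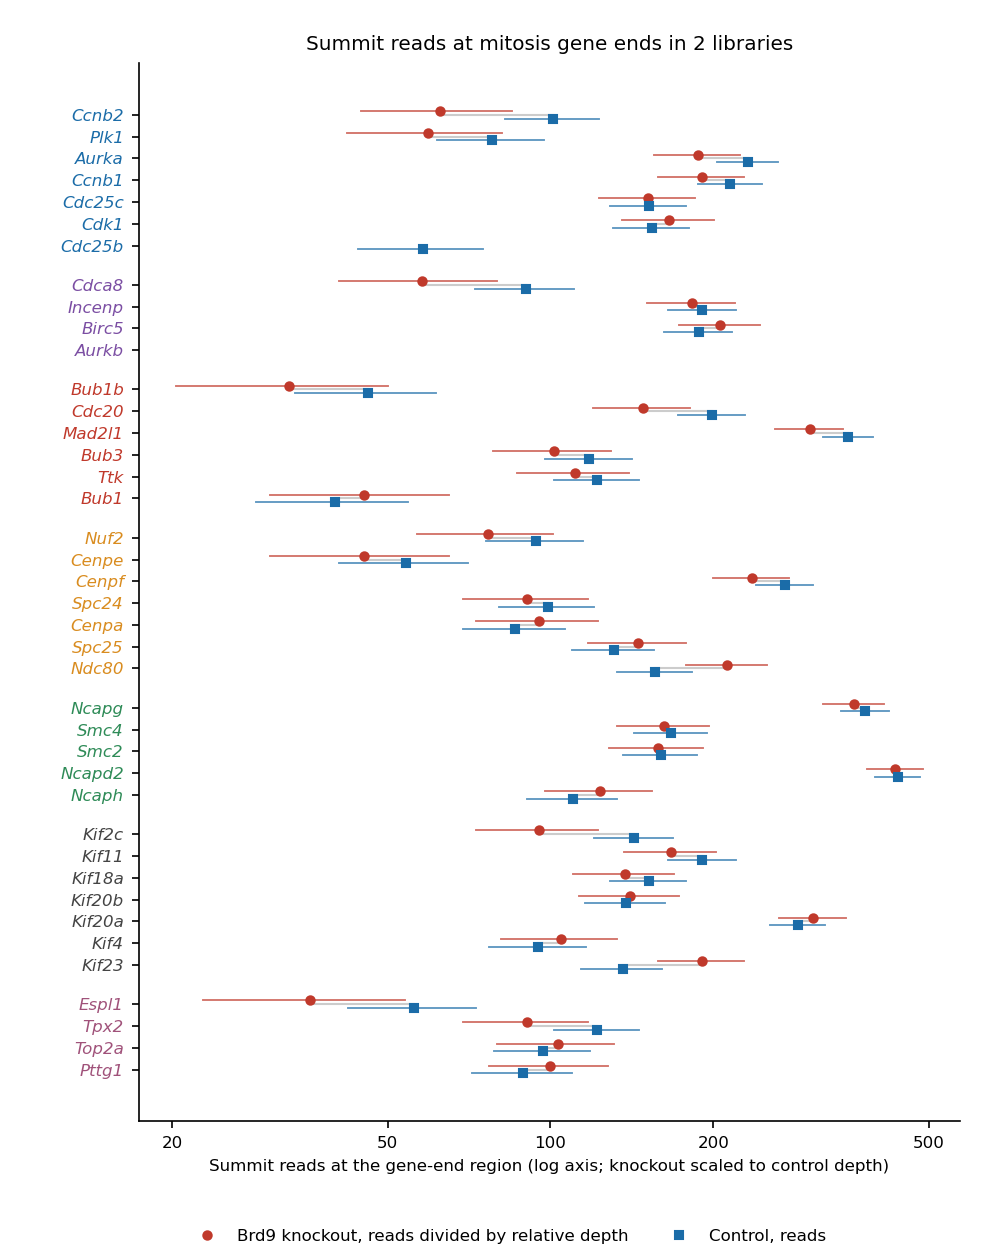
Summit reads at the gene-end region of each member, grouped by role, with knockout reads (red circles) divided by the relative depth of 0.640 and control reads (blue squares) as they are, on a log axis. Lines are exact Poisson 95% intervals, and the control mark stands alone at Cdc25b, with 58 reads.

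**Figure D4:**
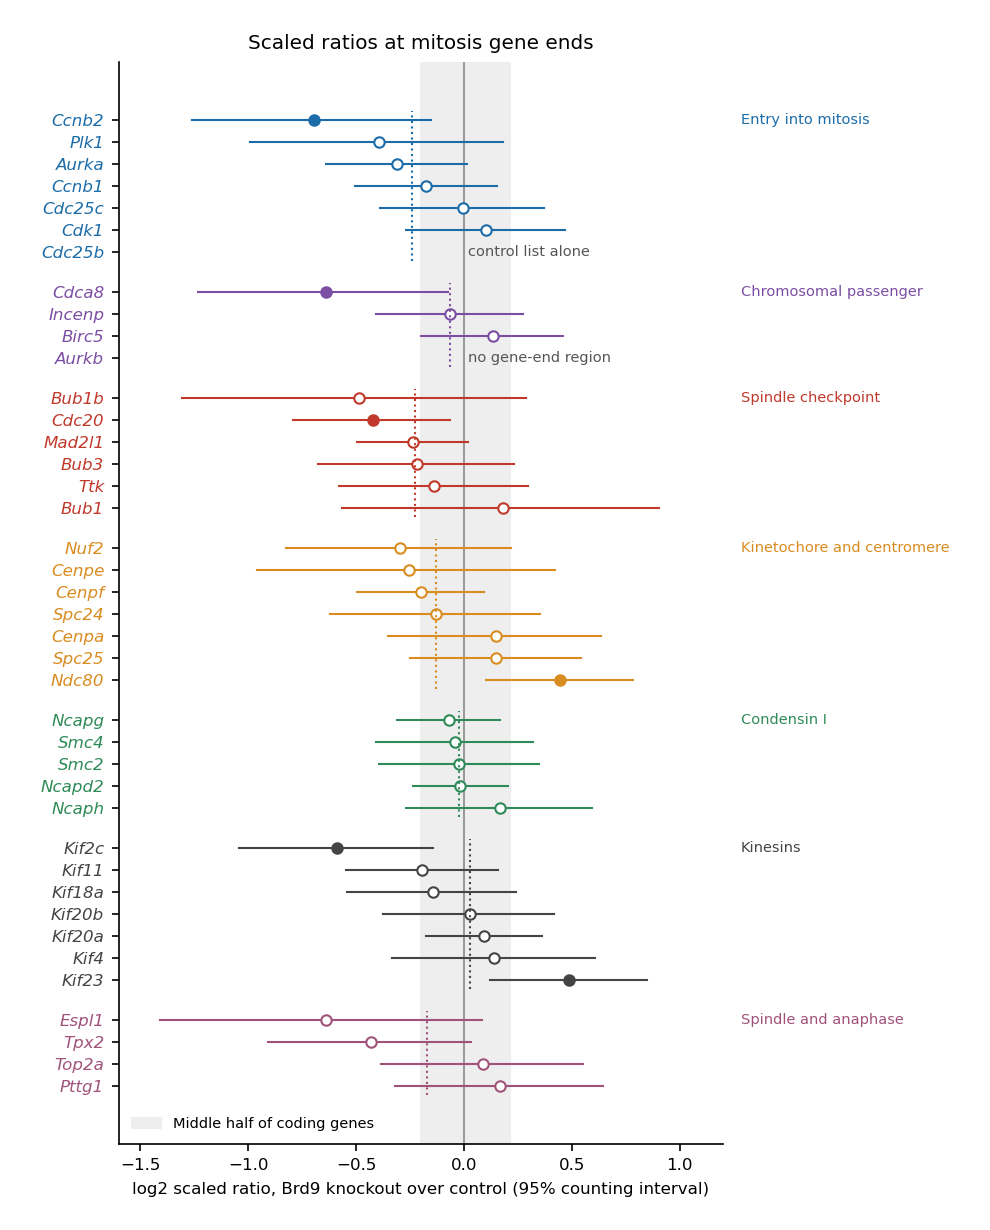
Log2 scaled ratio of knockout over control with its 95% counting interval for each member, filled where the interval leaves out 0. Dotted lines are role medians and the grey band spans the first to the last quartile of coding genes, from -0.20 to 0.21; condensin genes cluster near 0, while kinesin genes spread from -0.59 to 0.49.

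Compared by role, the medians were -0.23 for checkpoint, -0.13 for kinetochore, -0.02 for condensin and 0.03 for kinesin genes. The spread within kinesin genes (SD 0.33) and within checkpoint genes (SD 0.24) was about as large as the distance between these medians or larger, and with 1 library per genotype the distances were not tested. The order also depended on the processing: the kinesin median was -0.15, under those of condensin and kinetochore genes, with gene ends at 2.5 kb, and the checkpoint median was -0.0076 with the deposited fold.

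The peak caller set a local background around each summit. It tended to be larger where the summit was higher. In the knockout it was 1.81 at Bub1b, with the fewest summit reads (21), and 19.3 at Ncapd2, with the most (278). Agreement between the ratio of this background and the summit ratio is therefore no separate evidence. At the 6 genes whose interval left out 1, the ratio of this background lay on the same side of 1 as the summit ratio. Divided by relative depth, its ratio of knockout over control was 0.665 at Ccnb2, 0.708 at Cdca8, 0.602 at Kif2c, 0.674 at Cdc20, 1.30 at Ndc80 and 1.06 at Kif23. The deposited fold, which divides the summit by that background, was therefore nearer between the libraries. It was 12.7 in the knockout and 12.4 in the control at Cdc20, and 13.3 and 13.7 at Kif2c. At Ccnb2 it was 10.6 and 13.1. Taken from the deposited fold and divided by 0.990 as above, the ratio at Ndc80 was 1.04 in place of 1.36. At Kif23 it was 1.29 in place of 1.40. Members with a summit ratio above 1 and an interval that included 1 had background ratios on both sides of 1. Examples are 0.760 at Pttg1, 0.855 at Kif4 and 0.928 at Cdk1 below it, and 1.12 at Ncaph above it. The part of local background in the differences at the 6 genes was not tested.

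Of the 38 regions in both lists, 13 (34.2%) also lay at the end of another gene and 8 (21.1%) at the end of another coding gene, against 42.8% and 30.8% over coding genes. At these, reads cannot be assigned to 1 gene; of the 6 genes whose interval left out 1, this touches Cdca8 and Ndc80. Knockout peaks were narrower than control peaks at 28 of 38 members (73.7%), with medians of 948.5 and 1055 bp, as they were at 74.0% of coding genes.

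Away from their ends the members had few regions. Within the genes or 10 kb around them lay 38 such regions, of which 19 were in both lists, 6 in the knockout list alone and 13 in the control list alone. Of the 19, 3 lay at no end of another gene, so most sites open in both libraries near these genes were the ends of neighbours. Leaving out such neighbouring ends, 17 regions remained, of which 3 were in both lists, 5 in the knockout list alone and 9 in the control list alone. Over all 16276 regions away from gene ends, 48.7% were in both lists, 18.2% in the knockout list alone and 33.1% in the control list alone. Inside 5 members (Bub1b, Ndc80, Cenpa, Kif23 and Tpx2) lay regions of 1 list each, with 6 reads at Cenpa in the knockout list and 10 to 21 reads at the others in the control list. Of these nearby regions in 1 list, the one with the most reads was 7700 bp from Aurka, with 58 in the control list alone. Its deposited fold was 2.31, while a region 7283 bp from Espl1 in the control list alone had 40 reads and 8.35. Beyond the end of Kif23, a region 8075 bp away with 40 reads in the knockout list alone stood beside one 8789 bp away with 54 reads in the control list alone.

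Of 112 other mitosis genes, 108 had a gene-end region in both lists. Their median summit reads were 124.5 in the knockout and 199.5 in the control, more than at the members, and their median log2 ratio was 0.01, as over coding genes. Intervals lay below 1 at 6 of the 108 (5.56%, background 7.6%) and above 1 at 10 (9.26%, background 9.32%), so neither count exceeded the background. Such a region can lie at either end of a gene or at an end of a neighbour, and is not always the promoter. Where a start was listed and only regions within 0.5 kb of it were used, 105 genes stood in both lists. Of those, 6 had intervals below 1 and 9 above it. Which end stands for each gene named below was not looked up. The lowest were Foxm1, whose product switches on late cell-cycle genes (17 reads in the knockout and 48 in the control; 0.553, 0.298 to 0.979), the kinetochore genes Dsn1 (41 and 101; 0.634) and Cenpq (93 and 202; 0.719), and Mybl2, a transcription factor gene that works with FOXM1 (166 and 333; 0.778, 0.642 to 0.941). The highest were E2f4, which encodes the repressive E2F of the DREAM complex (38 and 31; 1.91, 1.16 to 3.18), its dimer partner gene Tfdp1 (106 and 105; 1.58, 1.19 to 2.08), the CENPA chaperone gene Hjurp (537 and 596; 1.41, 1.25 to 1.58) and Ckap2 (108 and 125; 1.35). Of a list of 16 regulators, 15 were in both lists, with a median of 0.06. Intervals lay below 1 at 2 of them, Foxm1 and Mybl2 (background 7.6%), and above 1 at 2, E2f4 and Tfdp1 (background 9.32%). They are named for their values, the counts are small, and no pattern among regulators was tested. The intervals of the other 11 included 1. Rbl1 (0.883), Lin37 (0.840) and Lin52 (0.967) were among those below 1, and Rbl2 (1.21), E2f1 (1.07) and E2f3 (1.04) among those above. In another list, Ccna2, for cyclin A2, had an interval below 1, from 269 and 511 reads (0.822, 0.707 to 0.955). The 21 entry, exit and anaphase-promoting complex genes had a median of 0.06, with 15 above and 6 below 0. The other lists had -0.01 (other kinetochore genes, 34 in both lists), -0.12 (condensin II, 3), -0.08 (other motors and midzone genes, 11) and 0.02 (spindle and centrosome, 24). Sgo1, Sgo2a and Nfyc had no gene-end region in either list.

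DNA replication genes, which act earlier in the cycle, served for comparison. Of 40, 37 had a region in both lists, with a median of -0.04, 6 intervals below 1 and 3 above. The 38 members had 4 below and 2 above, and coding genes 7.6% below and 9.32% above. A ratio of 0.667 or less was found at 6 of the 37 replication genes, against 4 of the 38 members and 4.59% of coding genes. Low values were thus more frequent at the replication genes than at the members, on small counts that were not tested. Lig1, the gene of DNA ligase I, was the lowest (8 reads in the knockout and 33 in the control; 0.379, 0.151 to 0.836). No test of the mitosis genes against the replication genes was possible.

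**Figure D5:**
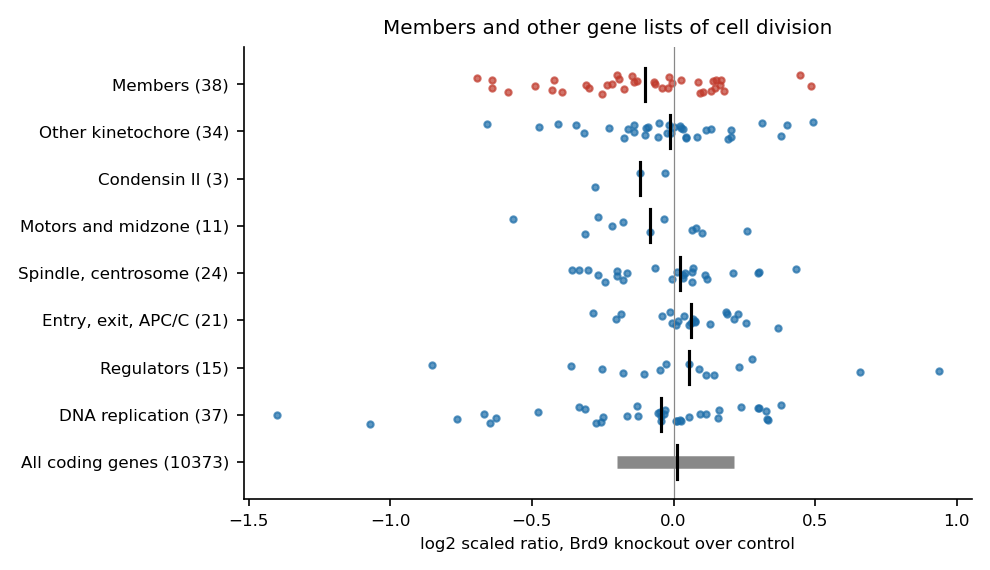
Log2 scaled ratio of knockout over control at the gene ends of the members (red), of other cell division genes (blue) and of all coding genes, with the number in both lists in brackets. Black bars are medians, from -0.12 for condensin II to 0.06 for entry, exit and anaphase-promoting complex genes, and the grey bar spans the first to the last quartile of coding genes.

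Other facts of the libraries touch these values. Brd9 itself had a gene-end region with 151 reads in the knockout and 217 in the control (1.09, 0.877 to 1.34), and since the floxed part is not located in the sources used here this checks neither label. Among progenitor markers, gene-end regions stood in both lists at Kit, Runx1, Spi1 and Myb and in neither at Ptprc, Cd34 and Gata2. Spi1, for a myeloid transcription factor, had 38 reads in the knockout and 30 in the control (1.98, 1.19 to 3.31). The other progenitor markers in both lists lay below 1 (Kit 0.931, Runx1 0.768, Myb 0.781), each with an interval that included 1. The erythropoietin receptor gene Epor had 197 and 369 reads (0.834, 0.698 to 0.994), while the interval of the erythroid gene Klf1 (0.939) included 1. A difference between blood lineages was not tested. Of 4 hepatocyte markers Apoa1 alone had one (19 and 26 reads), and the 3 macrophage markers had none. Klf1 and Epor, but not Gata1, of the erythroid markers were in both lists. Of the 3 endothelial markers only Kdr had gene-end regions, 1 in each list, and of the 3 stromal markers Col1a1 had one in both lists (19 and 29 reads) and Col1a2 one in the control list alone (12 reads). The part of such cells in the results was not tested. Sex-linked genes differed. On chromosome Y, Ddx3y had 33 reads and Uty 18 in the knockout list alone, and Xist had 33 knockout and 86 control reads (0.599, 0.388 to 0.905). The part of embryo sex in the ratios was not tested, and with 1 library per genotype it cannot be told apart from genotype. Kif4 is the X-linked member, and the 287 coding genes of chromosome X in both lists had a median of -0.07, against 0.01 on autosomes.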

How the data were processed

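The 2 deposited peak lists, 1 per library, are in narrowPeak format without headers. Trimmomatic 0.39, Bowtie2 2.4.4, Picard 2.26.2, deepTools 3.5.1, MACS2 2.2.7.1 and the build mm10 are named, per the submitters' processing notes, with no roles or settings. Transposase shift, duplicate handling and read extension have no description in those notes. The deposited fold is the ratio of summit pileup plus 1 to local background plus 1. The −log10 p and −log10 q values, as deposited, compare the same pair, and the deposited score is the −log10 q times 10 to within 1. The lowest deposited −log10 q is 1.32 in the knockout and 1.31 in the control. Summit positions were deposited in bp from the peak start.

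Summit reads were solved from the deposited fold and −log10 p as the whole number that gives both. One was found for 100.0% of peaks in each list, and for 100.0% of 1666 knockout-like and 1646 control-like simulated peaks. The knockout list has 22348 peaks with a median of 28 summit reads, the control list 25330 with a median of 37. Relative depth is the ratio of the lowest backgrounds, 0.971 in the knockout and 1.52 in the control. Total reads were not analysed here. Peaks over 3000 summit reads were left out of ratios. Where a gene had several regions in both lists, the one with most reads stands for it. Genes and promoters came from RefSeq (GRCm38.p6, the coordinates of mm10). Intervals are 95%, exact conditional binomial for ratios and exact Poisson for reads. PCR reads are not independent molecules, so intervals cover counting error only. No p-value was computed. Figures were drawn with matplotlib 3.10.9 and values computed with SciPy 1.17.1, pandas 2.3.3 and NumPy 2.4.6 under Python 3.11.15.

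Members, roles and lists were chosen with earlier results of these data known. Members got values where an interval left out 1, a ratio reached 1.5 or 0.667, a region was missing, or they were highest or lowest of a role; most others are given too. Of the other mitosis genes, the 4 lowest and 4 highest with an interval that left out 1 are named by that rule; Ccna2 and Lig1 were named after their values were seen. Alternatives covered gene-end distance, peak stringency, overlap, depth and the measure.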

Additional observations from a re-analysis of the deposited data

How the results depend on the processing

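No paired analysis was possible because each genotype has 1 library, numbered 2 in the knockout and 1 in the control, and no library could be left out. With gene ends at 2.5 kb, 1 member had an interval above 1 and the kinesin median was -0.15, since a region at Rplp1 then stood for Kif23, with a ratio of 0.720. With gene ends at 0.5 kb, the median of the spindle and anaphase genes was -0.43. With the deposited fold, its ratios divided by 0.990, the median of the members was 0.021, of entry genes -0.071 and of checkpoint genes -0.0076. The ratio at Cdc20 was then 1.04, at Ndc80 1.04 and at Kif2c 0.980. The deposited fold divides by a local background, whose ratio lay on the same side of 1 as the summit ratio where an interval left out 1. That background tended to be larger where the summit was higher, so the 2 ratios are not independent. Of the counts and medians of the lists, the other 124 values under alternatives stayed within set limits. Counts stayed within 1.5 times. Medians moved by less than the log2 counting error of the ratio of summed reads of the same genes, which is not the error of a median. The alternatives included a −log10 q of at least 5, overlap of 50% of each peak, depth from other regions, and, chosen after seeing the data, regions at a listed start. The q and overlap settings left the counts and medians of the members unchanged. The depth settings changed relative depth by 0.754% and 0.172%. Agreement under these settings therefore says little about stability. Depth limits genes under about 50 reads, such as Bub1b, Bub1 and Espl1, whose intervals are wide.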
